A study of Homo sapiens with 18 samples.

Results

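The comparison described here set PIK3R1-knockout RPMI-8402 cells treated for 24 h with a gamma-secretase inhibitor (GSI) against the same cells given DMSO, the solvent control. RPMI-8402 is an established line from a human T-ALL, an acute leukaemia of immature T cells. The members were the 3 libraries of the knockout GSI group and the 3 of the knockout DMSO group, taken by their labelled group, so that 6 of the 18 libraries of the series entered it, and 17346 of the 58735 genes in the count table had enough reads to be tested. The inhibitor is named in the labels as LY3039278, and no dose is given there. Both groups are labelled as PIK3R1 knockout. The labels do not say whether the knockout cells are 1 clone or a pool, how the knockout was made, or whether replicates were separate cultures, so that p-values measure the spread between these libraries. The other libraries come from a non-targeting control line (NT, labelled wild type) under the same treatments, and from both lines under CB-103, another NOTCH inhibitor, for the same time.

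NOTCH receptors are cut by gamma-secretase after a ligand binds or, in many T-ALL lines, through activating mutations. The freed intracellular domain joins RBPJ and a Mastermind cofactor on DNA and turns target genes on, among them HES family repressors and, in T-ALL, MYC. PIK3R1 encodes p85-alpha, a regulatory subunit that stabilises and restrains the catalytic subunits of class IA phosphoinositide 3-kinase (PI3K). The PI3K signal runs through AKT and mTOR to growth and translation.

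Sequencing was of polyA-selected, stranded, paired-end libraries. The 6 libraries held 31772383 to 40861569 reads assigned to genes, and all 18 held 30416183 to 43558387. Levels are given as CPM, the reads of a gene scaled to a common library size, after TMM scaling, which compare a gene between libraries and not one gene with another. Log2 fold changes are GSI minus DMSO, with the standard error of the edgeR model after the ± sign, and a gene was called at a Benjamini-Hochberg adjusted p under 0.05 over all 17346 genes. Replicate 1 stood apart across the series: 2477 genes differed between replicate 1 and replicates 2 and 3 over the 18 libraries, and 504 of the genes called here were among them. Of the 10 T-cell lineage markers 3 were higher and 5 lower, where 9.69% and 9.58% of all genes tested were. All 10 were present in every library, with a summed level of 1803 to 1904 CPM with DMSO and 1926 to 2010 CPM with the inhibitor. Of other lineages, 8 B-cell markers summed to at most 6.2 CPM, with EBF1 listed at 0, and 10 myeloid markers to 5.91 to 6.56 CPM with DMSO and 9.13 to 12.1 CPM with the inhibitor, with ELANE and CSF1R listed at 0. CD68, a lysosomal membrane protein, was the highest of the myeloid list and went from 3.53 to 7.07 CPM. The 8 erythroid markers were almost all EPOR, at 11.9 CPM with DMSO and 10.9 CPM with the inhibitor, and HBA1, HBB and HBG1 were listed at 0. The 12 markers of adherent cells summed to 224.6 to 239.1 CPM with DMSO and 245.1 to 272.7 CPM with the inhibitor, nearly all of it PECAM1, with KRT18, KRT19, COL3A1 and CDH5 listed at 0. Apart from CD68 none of the tested markers of these 4 lists was called. CD79B, a B-cell marker, went from 1.725 to 2.848 CPM and was called higher with the replicate block, by limma-voom, by DESeq2, with only the groups compared and with replicates 2 and 3 alone, and PECAM1 was called higher from gene sums of transcript estimates. The markers' part in the results was not tested.

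The targeted gene was measured first. PIK3R1 (chr5:68215720-68301821, GRCh38 coordinates of GENCODE 29) had 23.1, 21.4 and 23.2 CPM with DMSO and 27.4, 32.1 and 23.9 CPM with the inhibitor in knockout cells, against 44.3, 45.5 and 42.5 CPM in NT cells with DMSO. The knockout libraries were all below the NT libraries, and reads of the gene remained in all of them. A gene-level count does not show whether the transcript encodes protein. Within the knockout cells the inhibitor libraries were all above the DMSO libraries (log2 fold change 0.31 ± 0.090, adjusted p = 0.023). That call was lost without DMSO replicate 2 (0.28, adjusted p = 0.088) and without GSI replicate 2 (0.19, adjusted p = 0.15). It was also lost when the 6 libraries were fitted alone (adjusted p = 0.072) and with replicates 2 and 3 alone (adjusted p = 0.076). In NT cells PIK3R1 had 50.7, 57.1 and 53.05 CPM with the inhibitor and was called higher as well (0.28 ± 0.086, adjusted p = 0.023). The difference between the responses of the lines was 0.024 ± 0.12 and was not called (adjusted p = 0.94).

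With the inhibitor, 3341 of 17346 genes were called (19.3%), 1680 higher (9.69%) and 1661 lower (9.58%). Of these, 322 (1.86%) differed at least 2-fold. The median log2 fold change of all genes was -0.004 and that of called genes 0.345 in size, so that most called differences were small. Counts fell to between 2398 and 2857 when 1 of the 6 libraries was left out, and 1868 genes (897 higher, 971 lower) were called without each of them in turn. Groups that do not overlap were seen for 3098 genes on the higher side (17.9%) and 3077 on the lower side (17.7%). The called shares of 9.69% higher and 9.58% lower are to be set beside every list count below.

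Among the receptors, processing enzymes and cofactors of the NOTCH pathway, 5 of the 24 tested were higher and 4 lower, with a median of 0.040. NOTCH3, a receptor and itself a NOTCH target, had 74.96, 72.8 and 76.1 CPM with DMSO and 21.3, 29.1 and 27.7 CPM with the inhibitor. All 3 inhibitor libraries were well below the DMSO libraries (-1.52 ± 0.16, adjusted p = 2.3e-06). NOTCH1, the receptor most often mutated in T-ALL, had 387, 398 and 413 CPM with DMSO and 279, 282 and 293 CPM with the inhibitor, a fall of smaller size without overlap (-0.49 ± 0.057, adjusted p = 8.7e-06). JAG1, a ligand, fell by 1.16 on the log2 scale (adjusted p = 0.00047). On the enzyme side, APH1B, a subunit of gamma-secretase, rose from 8.61 to 12.2 CPM (0.50 ± 0.12, adjusted p = 0.0051), and ADAM10, the protease that makes the cut before gamma-secretase, rose from 112 to 141 CPM (0.33 ± 0.067, adjusted p = 0.0018). MAML3, a Mastermind cofactor, rose by 0.41 ± 0.086 (adjusted p = 0.0026). RBPJ was called in the full fit, at -0.19, but in no more than 1 of the 6 fits that left out a library.

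Direct NOTCH targets known from T-ALL held some of the largest falls of the comparison. Of the 17 members tested, 11 were lower and 0 higher, with a median log2 fold change of -1.34 against -0.004 over all genes, and all 11 were called without each library in turn. The list was drawn from textbook knowledge of T-ALL and with earlier results of these data known. CR2, the complement receptor CD21, had 134, 137 and 139 CPM with DMSO and 6.74, 5.82 and 6.46 CPM with the inhibitor. The groups were 21.6-fold apart (-4.43 ± 0.075, adjusted p = 7.3e-17). HES4, a HES family repressor, had 55.3, 54.4 and 57.9 CPM with DMSO and 4.56, 5.33 and 5.29 CPM with the inhibitor, and DTX1, a ubiquitin ligase that regulates NOTCH, had 79.5, 78.98 and 82.98 CPM with DMSO and 8.62, 8.599 and 9.98 CPM with the inhibitor. For both genes every inhibitor library was far below every DMSO library, with log2 fold changes of -3.46 ± 0.090 (adjusted p = 2e-14) and -3.15 ± 0.087 (adjusted p = 3.2e-14). HES1, the repressor most used as a readout of NOTCH activity, had 82.3, 68.7 and 67.9 CPM with DMSO and 10.9, 10.1 and 9.45 CPM with the inhibitor. DMSO replicate 1 was the highest library, and the inhibitor libraries lay 7.17-fold lower on the fitted mean (-2.84 ± 0.093, adjusted p = 3.6e-13).

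**Figure D1:**
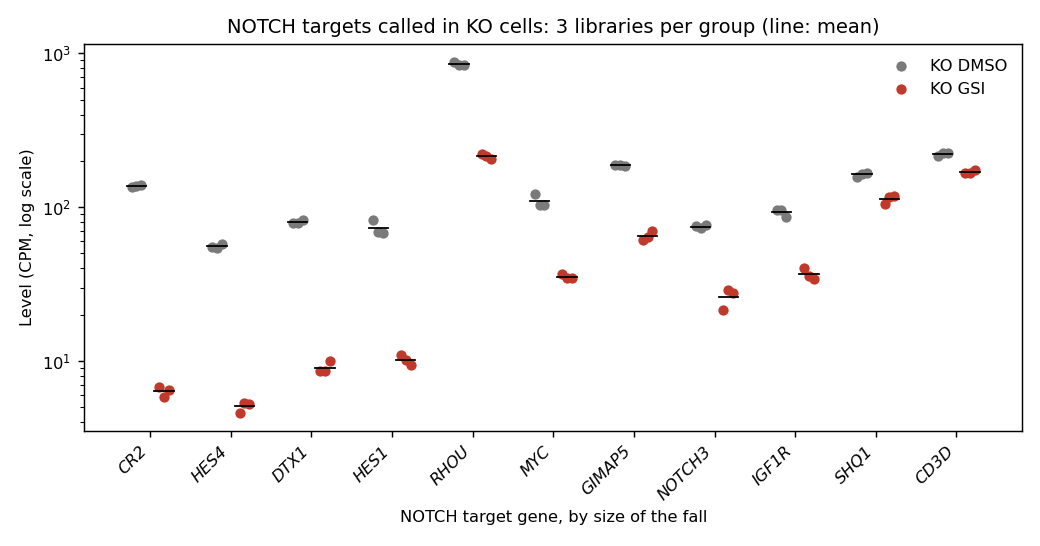
Level in CPM (log axis) of the 11 NOTCH targets called in knockout cells, with 1 point per library, DMSO in grey and the inhibitor in red, and a line at the mean of 3 libraries. No group overlaps the other for any of the 11 genes, and the gap narrows from CR2 on the left (log2 fold change -4.43) to CD3D on the right (-0.38).

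MYC, the growth regulator, had 122, 104 and 104 CPM with DMSO and 37, 34.6 and 34.6 CPM with the inhibitor. It was 3.103-fold lower on the fitted mean (-1.63 ± 0.067, adjusted p = 9.7e-12) and remained well above 0 in the inhibitor libraries. RHOU, a small GTPase, fell from 856 to 214 CPM (-2.00 ± 0.055) and GIMAP5, a GTPase needed for lymphocyte survival, from 188 to 65.3 CPM (-1.53 ± 0.054). IGF1R, the receptor of insulin-like growth factor 1, had 96.2, 95.7 and 86.7 CPM with DMSO and 40.5, 35.5 and 33.9 CPM with the inhibitor (-1.34 ± 0.083, adjusted p = 3.8e-09). Its groups did not overlap. SHQ1, an assembly factor of H/ACA small nucleolar ribonucleoproteins, fell by 0.53 and CD3D, a chain of the CD3 complex, by 0.38 on the log2 scale. The 6 members tested without a call were HEY2 (-1.24, adjusted p = 0.051), HEYL, IL7R, CCND3, LEF1 and CDCA7. CCND3, a cyclin of G1, had 677, 609 and 621 CPM with DMSO and 624, 612 and 632 CPM with the inhibitor, with overlapping groups (-0.029 ± 0.072, adjusted p = 0.84). IL7R stayed at or under 0.691 CPM in each of the 6 libraries. NRARP was listed at 0 in every library, and PTCRA had 10 reads over the DMSO libraries and 6 over the inhibitor libraries, so no difference was detectable for either.

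RefSeq promoter windows of 250 bases before the annotated start (GRCh38.p14) were read for the members with the largest falls that had an entry, since NOTCH acts on such genes through RBPJ. The 3 below carry the largest falls and the HES1 difference between genotypes given later. Capitals mark TGGGAA, the core of the sequence RBPJ binds, searched on both strands. The HES1 window is chr3:194135898-194136147 (plus strand), that of HES4 chr1:1000098-1000347 (minus strand) and that of CR2 chr1:207454078-207454327 (plus strand), each written 5′ to 3′ on the gene's strand.
HES1: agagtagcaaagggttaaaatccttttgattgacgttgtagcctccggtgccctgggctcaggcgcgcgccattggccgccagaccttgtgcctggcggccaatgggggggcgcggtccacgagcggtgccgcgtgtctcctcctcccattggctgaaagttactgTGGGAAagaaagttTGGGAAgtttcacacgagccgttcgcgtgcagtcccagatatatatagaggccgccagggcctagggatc
HES4: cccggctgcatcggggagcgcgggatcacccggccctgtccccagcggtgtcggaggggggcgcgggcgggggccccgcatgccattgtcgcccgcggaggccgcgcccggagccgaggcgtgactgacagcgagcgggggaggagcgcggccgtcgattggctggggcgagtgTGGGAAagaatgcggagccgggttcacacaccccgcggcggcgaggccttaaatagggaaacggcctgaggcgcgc
CR2: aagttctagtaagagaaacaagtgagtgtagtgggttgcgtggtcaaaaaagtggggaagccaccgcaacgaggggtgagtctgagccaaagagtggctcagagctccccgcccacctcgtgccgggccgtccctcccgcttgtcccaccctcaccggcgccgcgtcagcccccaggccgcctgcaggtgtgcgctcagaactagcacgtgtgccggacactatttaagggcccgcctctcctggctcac
HES1 held 2 matches, with first bases 84 and 70 bases before the start, HES4 held 1, at 76 bases before the start, and the CR2 window held 0, as did that of GIMAP5. The longer form GTGGGAA, which includes the first, was in 3 of the 9 windows of called targets, in 5.46% of the 27305 promoters of the table and in 4.97% of the 11624 windows of tested genes. TGGGAA itself was in 3 of the 9, in 21.1% of all promoters and in 19.6% of the windows of tested genes. Of the 15 windows of all tested targets, called or not, 5 held GTGGGAA and 6 held TGGGAA. Over all genes called lower GTGGGAA was in 4.35% and TGGGAA in 17.1% of 1288 windows. CACGTG, the E-box that MYC and its partner MAX bind, was in 12.3% of those 1288 windows, in 7.96% of the 1307 windows of genes called higher and in 8.67% of the windows of tested genes. These are matches of letters in short windows, with no test, and say nothing of binding.

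The 10 largest falls among genes of at least 5 CPM without overlap were led by 2 genes that are not on the target list. TRD-AS1, a long non-coding RNA antisense to the T-cell receptor delta locus (chr14:22380680-22482959, minus strand), had 30.1, 32.4 and 31.8 CPM with DMSO and 0.984, 0.7095 and 0.976 CPM with the inhibitor. It fell 35.4-fold (-5.14 ± 0.17, adjusted p = 5.3e-13), a value that is uncertain, since it overlaps TRDC on the other strand and strand use in counting is not stated. ANKRD1, an ankyrin repeat protein best known from muscle, had 15.6, 15.5 and 15.1 CPM with DMSO and 0.656, 0.369 and 0.693 CPM with the inhibitor (-4.75 ± 0.15, adjusted p = 1.7e-13). OLFM4, a secreted olfactomedin, fell from 83.4 to 6.43 CPM (-3.70 ± 0.11), TNFRSF4, the costimulatory receptor OX40, from 10.8 to 1.24 CPM (-3.13 ± 0.21), and the long non-coding RNA LINC02814 from 32.5 to 3.27 CPM (-3.31 ± 0.15). The long non-coding RNA ENSG00000272512 (chr1:995966-998051, minus strand) lies 910 bases from HES4 on the same strand and fell with it, from 9.502 to 0.528 CPM (-4.16 ± 0.26). PPAN-P2RY11 is a readthrough gene with 97.5% of its exon bases shared with genes on the same strand, PPAN among them, so its log2 fold change of -4.19 is uncertain. PPAN itself, a ribosome maturation factor, had 279, 272 and 292 CPM with DMSO and 73.7, 69.02 and 68.4 CPM with the inhibitor (-2.00 ± 0.065, adjusted p = 3.6e-13). CR2, HES4 and DTX1 made up the rest of the 10.

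Among the same genes of at least 5 CPM without overlap, the 10 largest rises were smaller in size than the 10 largest falls. LGALS1, the secreted lectin galectin-1, had 8.71, 10.4 and 10.9 CPM with DMSO and 33.6, 42.1 and 44.4 CPM with the inhibitor. It was the largest rise among these, at 3.997-fold (2.00 ± 0.17, adjusted p = 1.5e-07), and every inhibitor library was over 3 times the highest DMSO library. Several of the others are known from red cell and megakaryocyte development. HEMGN, a nuclear protein of blood progenitors, rose from 10.5 to 33.4 CPM (1.67 ± 0.086, adjusted p = 2.9e-10). RHEX, a regulator of erythroid expansion, rose from 30.8 to 95.7 CPM (1.64 ± 0.089, adjusted p = 6.7e-10). GFI1B, a transcriptional repressor that acts in the red cell and megakaryocyte lineages, rose from 16.03 to 37.1 CPM (1.21 ± 0.087, adjusted p = 2.1e-08). The erythroid markers themselves were not called, with 2 of 8 tested. ENSG00000285417, a transcribed pseudogene that shares exon bases with RHEX on the same strand, rose as well (1.24), and reads of the 2 may have been split by the counting. The remaining members of the 10 were HEPACAM, an adhesion molecule (1.41), AFF2 (1.30), GCSAML (1.24), and the long non-coding RNAs CERNA2 (1.24) and ENSG00000285933 (1.32).

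Of 13 genes of the MYC network 1 was higher and 4 lower, with a median of -0.212. MXD4, a repressor that competes with MYC for MAX, rose from 6.08 to 9.02 CPM (0.57 ± 0.094, adjusted p = 0.00031), and MNT, another of that kind, fell from 33.02 to 25.7 CPM (-0.36 ± 0.081). Genes of ribosome production were called in 1 direction. In the ribosome biogenesis list 25 of 34 were lower and 0 higher, with a median of -0.449, where 9.58% of all genes were lower. PPAN led the list, followed by MYBBP1A, a regulator of RNA polymerase I (146 to 80.3 CPM, -0.87 ± 0.063, adjusted p = 2.5e-08), and UTP20, of the small subunit processome (129.6 to 77.7 CPM, -0.74 ± 0.048, adjusted p = 7.4e-09). POLR1B, a catalytic subunit of RNA polymerase I, fell from 49.1 to 29.6 CPM (-0.73 ± 0.14, adjusted p = 0.0013). In the nucleotide and polyamine list 14 of 23 were lower and 2 higher, with a median of -0.189. SRM, spermidine synthase, had 91.8, 94.3 and 100.1 CPM with DMSO and 58.01, 59.2 and 56.7 CPM with the inhibitor (-0.72 ± 0.057), and PFAS, of purine synthesis, fell from 159 to 102 CPM (-0.65 ± 0.046). The 2 higher were 1 without DMSO replicate 2 or GSI replicate 3. TYMS, thymidylate synthase, was higher by 0.17, a call lost in both of those fits. Among the snoRNA host genes 4 of 18 were lower and 1 higher (4 higher without GSI replicate 1 or with the replicate block), with a median of -0.060, SNHG4 falling most (-0.72 ± 0.079).

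Genes that charge tRNA and supply amino acids were mostly called lower. Of the 20 cytosolic aminoacyl-tRNA synthetases 16 were lower and 1 higher, with a median of -0.343, and the single higher call, QARS1, was lost without each of DMSO replicates 2 and 3 and GSI replicates 1 and 2. IARS1, which charges isoleucine, had 476, 491 and 512 CPM with DMSO and 327, 322 and 332 CPM with the inhibitor (-0.59 ± 0.044, adjusted p = 3.1e-08), and VARS1, MARS1 and GARS1 fell by 0.60, 0.59 and 0.58 on the log2 scale. Of the 28 targets of ATF4, the factor of amino acid shortage, 19 were lower and 1 higher, with a median of -0.461. SLC7A11, the cystine transporter, had 10.97, 10.6 and 13.03 CPM with DMSO and 5.25, 4.399 and 3.94 CPM with the inhibitor (-1.34 ± 0.13, adjusted p = 1.4e-06). CHAC1, a glutathione-degrading enzyme, fell by 1.28, PYCR1, of proline synthesis, by 1.04, and ATF4 itself by 0.49 on the log2 scale (adjusted p = 4.3e-07). ATF3, a stress factor often induced with ATF4, was the 1 that rose, with 30.1, 30.1 and 28.98 CPM with DMSO and 61.02, 58.9 and 57.2 CPM with the inhibitor (0.99 ± 0.077, adjusted p = 6e-08).

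Translation factors showed 15 of 32 lower and 3 higher, with a median of -0.159. EIF4EBP1, the mTOR-regulated inhibitor of cap-dependent translation, fell from 104 to 73.7 CPM (-0.50 ± 0.051, adjusted p = 1.9e-06), and EIF3B and EIF4G1, of the initiation complex, by 0.46 and 0.44. The count of 3 higher became 0 without DMSO replicate 2 or without DMSO replicate 3 and 1 without GSI replicate 1. Of the cytosolic ribosomal proteins 6 of 37 were higher and 0 lower, with a median of 0.126. RPLP0, of the ribosomal stalk, had 3363, 3236 and 3253 CPM with DMSO and 3893, 3844 and 4014 CPM with the inhibitor (0.25 ± 0.046, adjusted p = 0.00075), without overlap. With the replicate number as a block 11 of the 37 were higher and 1 lower, and 1 was lower without DMSO replicate 1. Many ribosomal proteins have processed pseudogene copies, so that the assignment of their reads is uncertain. Chaperones were lower in 15 of 21 cases and higher in 0, with a median of -0.280, and in 9 of 21 without DMSO replicate 1. TRAP1, a mitochondrial HSP90, fell from 159.7 to 117 CPM (-0.45 ± 0.060), and HSPH1 and HSPA9 by 0.41 and 0.40 on the log2 scale. The unfolded protein response had 5 of 23 higher and 5 lower, with a median of 0.004. XBP1, its transcription factor, rose from 100.2 to 145 CPM (0.53 ± 0.049, adjusted p = 4.7e-07), and HERPUD1, of ER-associated degradation, fell from 32.04 to 21.1 CPM (-0.60 ± 0.073, adjusted p = 1.4e-05). Its count of 5 lower was 2 without DMSO replicate 3 or GSI replicate 2 and 3 without each of DMSO replicates 1 and 2 and GSI replicate 3, and its 5 higher became 3 without GSI replicate 1. Of 28 proteasome genes 3 were lower and 1 higher, at a median of -0.003 (6 lower with the replicate block, 1 lower without any 1 of DMSO replicate 3, GSI replicate 2 and GSI replicate 3, and 0 higher without any 1 of DMSO replicates 1 and 2 and GSI replicates 2 and 3).

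**Figure D2:**
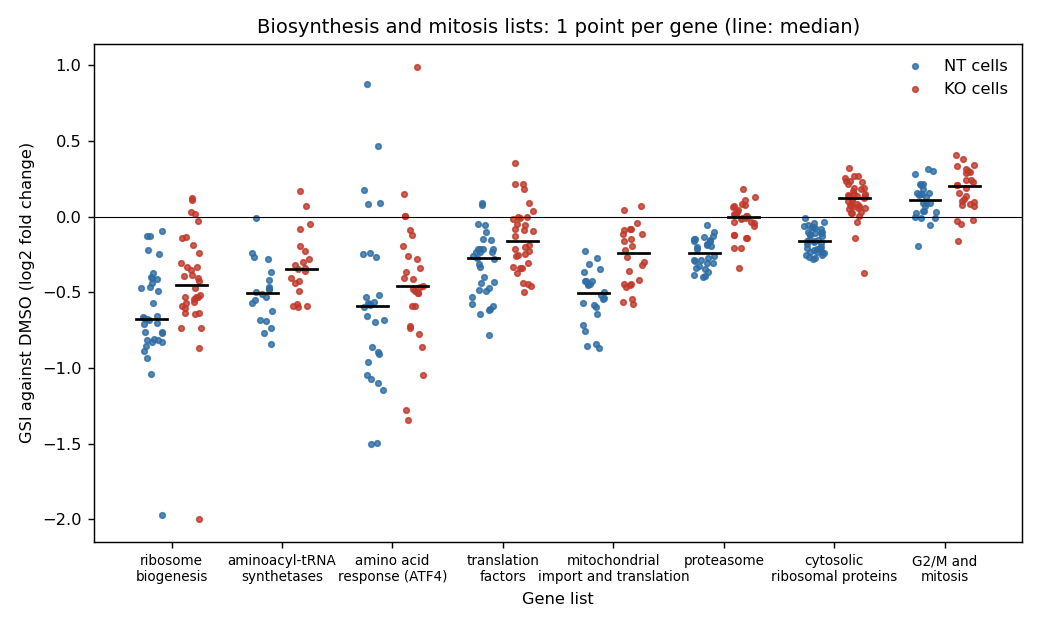
Log2 fold change of GSI against DMSO for each tested gene of 8 lists, in NT cells (blue) and knockout cells (red), with a line at the list's median. In knockout cells the medians run from -0.461 (ATF4 targets) and -0.449 (ribosome biogenesis) to 0.126 (ribosomal proteins) and 0.201 (mitosis).

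Energy metabolism split. In glycolysis 9 of 24 were lower and 1 higher, with a median of -0.150. HK2, the hexokinase of growing cells, had 43.9, 36.9 and 39.7 CPM with DMSO and 23.4, 21.5 and 19.2 CPM with the inhibitor (-0.91 ± 0.083, adjusted p = 4.4e-07), while ALDOC, an aldolase, rose from 12.7 to 23.2 CPM (0.87 ± 0.11, adjusted p = 3e-05). Mitochondrial import and translation had 12 of 24 lower and 0 higher, with a median of -0.242, and with TIMM44 and MRPL12 falling by 0.58 and 0.57. Nuclear genes of the respiratory chain had 7 of 34 lower and 2 higher, at a median of 0.002. The 7 were 4 without each of DMSO replicates 2 and 3 and GSI replicates 1 and 2, and the 2 higher were 1 without each of DMSO replicates 2 and 3 and GSI replicates 2 and 3 and 6 with the block. All 13 mitochondrially encoded genes were higher without overlap, where 17.9% of all genes tested were. Their median was 0.480, but 1 of 13, MT-CYB, was called (adjusted p = 0.044), and 0 were when any 1 of the 6 libraries was left out. They took 1.52 to 1.70% of the reads with DMSO and 2.17 to 2.31% with the inhibitor. In NT cells they took 2.77 to 3.31% with DMSO and 1.71 to 5.02% with the inhibitor. Fitted on the 6 knockout libraries alone, all 13 were called, with no filter on low counts 11 were, and by limma-voom 0 were. Lipid synthesis genes were called mostly on the higher side, with 7 of 23 cholesterol genes higher and 1 lower (median 0.113), and 6 of 12 fatty acid genes higher and 1 lower (median 0.127; 0 lower without DMSO replicate 2 or GSI replicate 3). INSIG1, the sterol sensor's retention protein, had 432, 412 and 399 CPM with DMSO and 603, 572 and 556 CPM with the inhibitor (0.48 ± 0.060, adjusted p = 1.9e-05), and FADS2, a desaturase, rose from 404 to 579 CPM (0.52 ± 0.071, adjusted p = 5e-05). The cholesterol count was 4 higher without DMSO replicate 3.

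**Figure D3:**
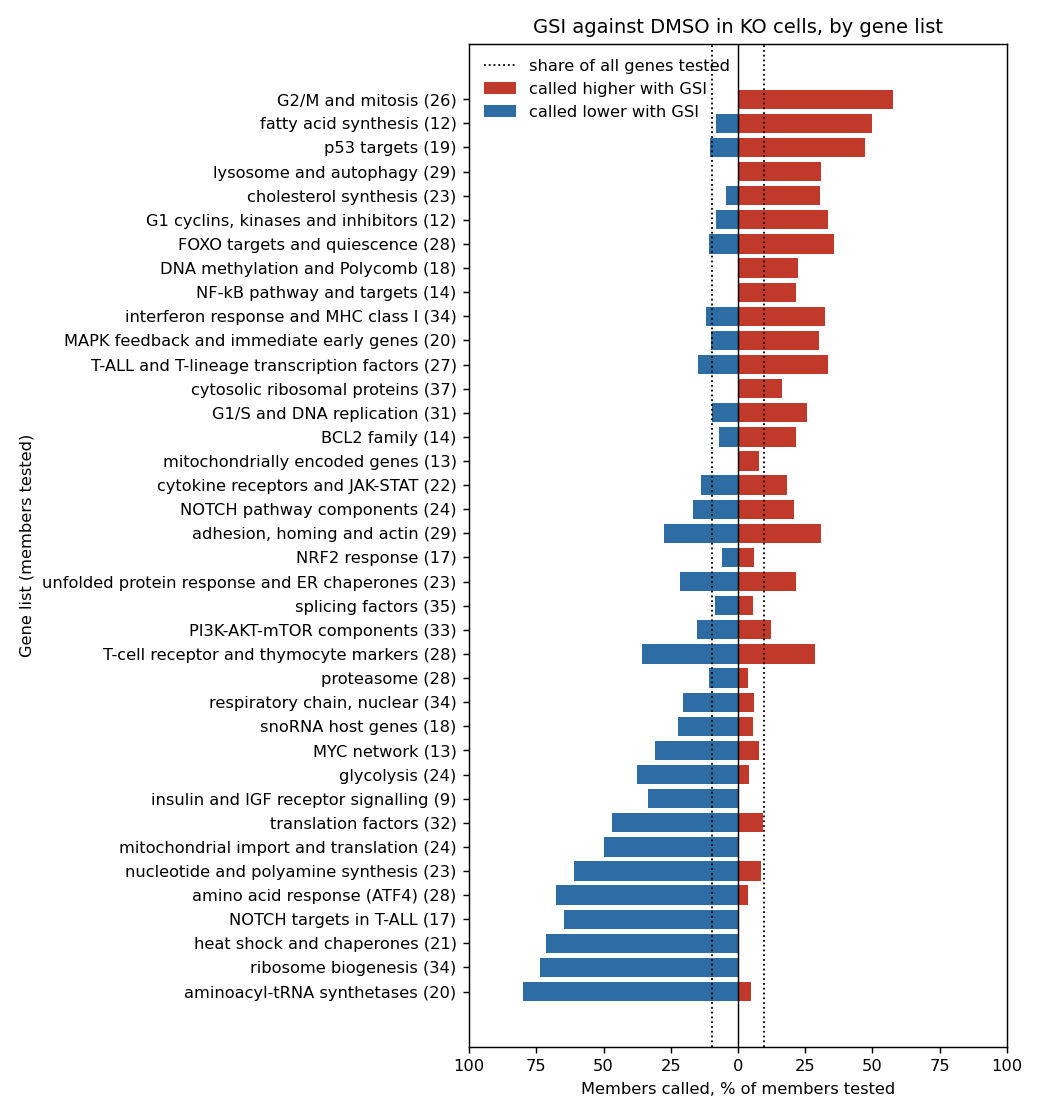
Percent of tested members called higher (red, to the right) and lower (blue, to the left) with the inhibitor in knockout cells for 38 gene lists, with the number of members tested in brackets. Dotted lines mark the share of all genes tested, 9.69% higher and 9.58% lower. Aminoacyl-tRNA synthetases stand at the low end (16 of 20 lower) and mitosis genes at the high end (15 of 26 higher).

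Mitosis genes were more often higher than lower. Of the 26 G2/M and mitosis genes 15 were higher and 0 lower, with a median of 0.201 (1 lower without GSI replicate 1 or with the block). CDK1, the kinase of mitotic entry, had 342, 346 and 342 CPM with DMSO and 391, 442 and 447 CPM with the inhibitor (0.31 ± 0.048, adjusted p = 0.00015), and CDC25C, its phosphatase, rose from 18.4 to 24.5 CPM (0.41 ± 0.056, adjusted p = 4.6e-05). In the G1/S and replication list 8 of 31 were higher and 3 lower, with a median of 0.059. CCNE2, a G1/S cyclin, rose by 0.39 ± 0.064, though 37% of its exon bases lie opposite another gene and strand use in counting is not stated, and CDT1, the origin licensing factor, had 114, 128 and 117 CPM with DMSO and 88.5, 86.7 and 77.4 CPM with the inhibitor (-0.51 ± 0.081, adjusted p = 0.00023). The 8 higher were 4 without DMSO replicate 2 and 5 without DMSO replicate 3 or GSI replicate 3, and the 3 lower were 1 without each of DMSO replicates 2 and 3 and GSI replicates 1 and 2. In the list of G1 cyclins, kinases and inhibitors 4 of 12 were higher and 1 lower, with a median of 0.096. CDKN2C, which encodes p18, rose from 66.05 to 104 CPM (0.66 ± 0.065, adjusted p = 1.1e-06), CDKN2D, which encodes p19, rose from 20.5 to 30.9 CPM (0.59 ± 0.061), and CDKN1B, which encodes p27, rose from 65.5 to 83.9 CPM (0.36 ± 0.054, adjusted p = 0.00012). All 3 encode inhibitors of G1 kinases. In a bulk library the share of cells in a phase and the level per cell cannot be told apart, here and in each list above.

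In the PI3K, AKT and mTOR list 4 of 33 were higher and 5 lower, at a median of -0.011, where 9.69% and 9.58% of all genes were called. PIK3CG, the catalytic p110-gamma, rose from 23.04 to 31.97 CPM (0.47 ± 0.088, adjusted p = 0.00097), and RPTOR, the scaffold of mTOR complex 1, fell from 50.2 to 37.8 CPM (-0.41 ± 0.075, adjusted p = 0.00081), as did INPP5D, the phosphatase SHIP1 (-0.33 ± 0.063). The 4 higher were 2 without GSI replicate 2, and the 5 lower were 3 without DMSO replicate 2 or GSI replicate 3. Besides IGF1R, GRB10, an adaptor that restrains insulin and IGF receptors, fell from 33.1 to 24.5 CPM (-0.43 ± 0.061). Of the 9 insulin and IGF signalling genes 3 were lower and 0 higher, with a median of -0.122 (1 higher without GSI replicate 2). Targets of FOXO factors, which AKT holds out of the nucleus, and quiescence genes had 10 of 28 higher and 3 lower, with a median of 0.161. BTG2, an antiproliferative gene, rose from 79.8 to 124 CPM (0.63 ± 0.053, adjusted p = 1.8e-07). GADD45A, another of the list, fell from 10.3 to 5.42 CPM (-0.93 ± 0.10). Among BCL2 family genes 3 of 14 were higher and 1 lower (6 higher and 2 lower with the replicate block), with a median of 0.038. BMF and BCL2, on opposite sides of cell death, rose by 0.40 and 0.34, and PMAIP1, which encodes NOXA, fell by 0.31 on the log2 scale. Of 19 p53 targets 9 were higher and 2 lower (5 higher without DMSO replicate 3), with a median of 0.178 and with FAS, a death receptor, rising from 2.96 to 5.03 CPM (0.76 ± 0.17). In the MAPK feedback list 6 of 20 were higher and 2 lower, with a median of 0.024. The 6 higher were 2 without DMSO replicate 2 and 3 without DMSO replicate 3, and the 2 lower were 1 without DMSO replicate 1. ETV5, an ETS factor of that pathway, had 5.82, 5.27 and 5.196 CPM with DMSO and 11.9, 12.9 and 12.2 CPM with the inhibitor (1.18 ± 0.14, adjusted p = 7.3e-06).

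Genes of the T-cell receptor and of thymocyte stages moved both ways, with 8 of 28 higher and 10 lower and a median of -0.055. PTPRC, the phosphatase CD45, had 203, 193 and 204 CPM with DMSO and 437, 426 and 430.4 CPM with the inhibitor (1.11 ± 0.055, adjusted p = 1.6e-10). DNTT, the terminal transferase of rearranging thymocytes, had 499, 458 and 466 CPM with DMSO and 933, 915 and 917 CPM with the inhibitor (0.96 ± 0.066, adjusted p = 1.3e-08). TRAC, the constant region of the T-cell receptor alpha chain, had 0.143, 0.143 and 0.195 CPM with DMSO and 2.59, 2.92 and 2.96 CPM with the inhibitor, a change from near nothing to a low level (4.11 ± 0.27, adjusted p = 7e-09). The groups were far apart for all 3 genes. TRDC, the delta constant region, rose from 0.405 to 1.9 CPM (2.22 ± 0.20), with 38.8% of its exon bases opposite exons of TRD-AS1, which fell. The TRDC value is uncertain, since strand use in counting is not stated. CD7, an early T-cell antigen, had 19.8, 22.8 and 23.04 CPM with DMSO and 8.94, 9.22 and 8.31 CPM with the inhibitor (-1.31 ± 0.15, adjusted p = 6.8e-06), and ZAP70, the kinase of the T-cell receptor, fell from 386 to 196 CPM (-0.97 ± 0.078). RAG1, the recombinase, fell from 4.68 to 1.86 CPM (-1.33 ± 0.26, adjusted p = 0.0013).

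Of the transcription factors of T-ALL and T-cell development 9 of 27 were higher and 4 lower, with a median of 0.086. LMO1, an adaptor of the TAL1 complex, had 119.6, 118 and 123 CPM with DMSO and 14.4, 13.4 and 14.01 CPM with the inhibitor and fell 8.63-fold (-3.11 ± 0.067, adjusted p = 1.3e-15). Its partner TAL1 rose from 52 to 63.7 CPM (0.29 ± 0.049, adjusted p = 0.00034). IKZF2, the Ikaros relative Helios, had 78.4, 78.8 and 79.1 CPM with DMSO and 144, 145 and 151 CPM with the inhibitor (0.89 ± 0.061, adjusted p = 1.1e-08), and TOX, a thymocyte factor, rose from 34.2 to 60.3 CPM (0.82 ± 0.074). Cytokine receptors and JAK-STAT genes had 4 of 22 higher and 3 lower, with a median of 0.026. JAK3 fell from 16.2 to 6.896 CPM (-1.24 ± 0.12, adjusted p = 7.6e-07), while IL2RG, the common receptor chain that signals through it, rose from 384 to 512 CPM (0.42 ± 0.079, adjusted p = 0.0011).

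In adhesion, homing and actin 9 of 29 were higher and 8 lower (5 lower without DMSO replicate 3), with a median of 0.160. RHOH, a GTPase of T cells, rose from 117 to 247 CPM (1.08 ± 0.076, adjusted p = 1.7e-08), and CXCR4, a homing receptor, from 151 to 208 CPM (0.46 ± 0.063, adjusted p = 4.7e-05), while CCR9, the gut and thymus homing receptor, had 156, 145 and 146 CPM with DMSO and 71.3, 66.5 and 68.2 CPM with the inhibitor (-1.12 ± 0.072, adjusted p = 6.5e-09). The interferon and MHC class I list had 11 of 34 higher and 4 lower (7 higher without GSI replicate 2, 2 lower without DMSO replicate 3, 7 lower with the replicate block), with a median of 0.107. HLA-E, a non-classical class I gene, rose by 0.42 ± 0.043, and IRF1, an interferon regulatory factor, fell from 52.5 to 32.9 CPM (-0.67 ± 0.083). Lysosome and autophagy genes had 9 of 29 higher and 0 lower (1 lower by limma-voom), with a median of 0.064, CD63 most (50.6 to 73.8 CPM, 0.55 ± 0.056, adjusted p = 1.9e-06) and then MAP1LC3B, which encodes the autophagosome protein LC3B (0.39 ± 0.060). Few members were called among the splicing factors (2 of 35 higher and 3 lower, median -0.003, 5 lower with the replicate block, 1 higher without any 1 of the 6 libraries) and in the NRF2 response (1 of 17 higher and 1 lower, median -0.023, the higher one lost in 5 of the 6 fits that left out a library). NF-kB genes had 3 of 14 higher and 0 lower, with a median of 0.202 and with TRAF1, a signalling adaptor, rising from 0.527 to 1.33 CPM (1.34 ± 0.25). In DNA methylation and Polycomb 4 of 18 were higher and 0 lower, with a median of 0.111, but 1 was higher without each of DMSO replicates 2 and 3, 2 without each GSI replicate, and 1 was lower without GSI replicate 1. PHF19, an accessory factor of Polycomb complex 2, rose from 68.8 to 95.2 CPM (0.47 ± 0.048).

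The same treatment of NT cells, in libraries of its own, gave 4277 calls (24.7%). They were 1677 higher (9.67%) and 2600 lower (15%), and 510 (2.94%) were at least 2-fold apart. Of the 1661 genes lower in knockout cells 1143 were lower in NT cells (68.8%, and 44% of the NT list), and of the 1680 higher 770 were higher there (45.8%, and 45.9% of the NT list). Opposite calls were made for 22 genes higher and 9 lower in knockout cells. Across 10379 genes of at least 5 CPM over the 12 libraries the log2 fold changes correlated with r = 0.743, a description over genes, which are not independent. Over all 17346 genes tested r was 0.311. Of the 1143 genes lower in both, 814 had the smaller change in knockout cells, and of the 770 higher in both, 365 had.

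A test of the difference between the 2 responses called 484 genes (2.79%), 364 with a higher log2 fold change in knockout cells (2.1%) and 120 with a lower one (0.692%). At an unadjusted p under 0.05 there were 3506. The count moved with each library left out, least without knockout GSI replicate 1 (420). It ranged from 36 without NT GSI replicate 3 to 856 without NT GSI replicate 2, and it was 39, 79, 90 and 95 without knockout DMSO replicate 2, NT DMSO replicate 1, knockout GSI replicate 3 and knockout DMSO replicate 3. It was 134, 140, 163, 247 and 273 without knockout GSI replicate 2, NT GSI replicate 1, NT DMSO replicates 2 and 3, and knockout DMSO replicate 1. With the replicate number as a block it was 1291, with all 484 among them. Without each of the 12 libraries in turn 29 genes were called, 6 of which are copies of the U1 small nuclear RNA with the same values, and 9 of the genes named here are among them.

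**Figure D4:**
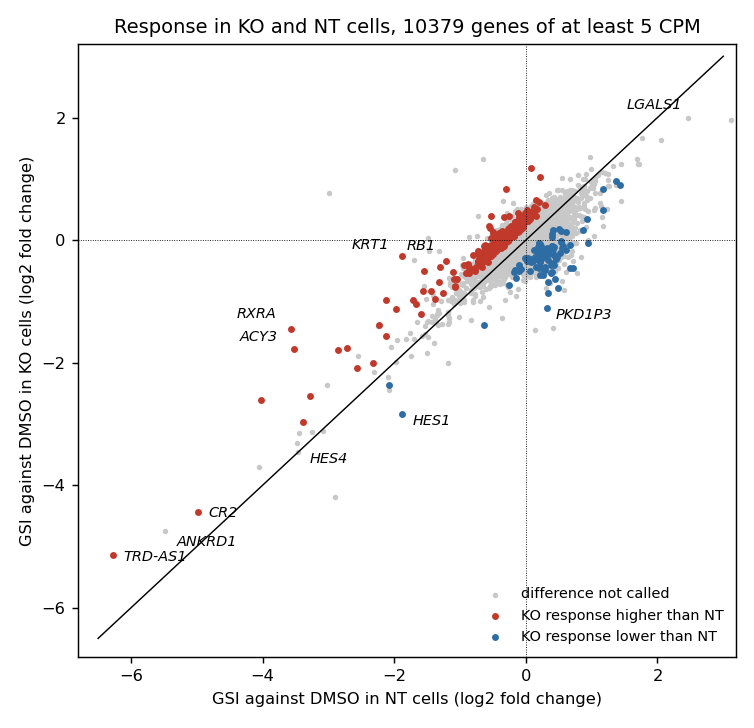
Log2 fold change of GSI against DMSO in NT cells (horizontal) and knockout cells (vertical) for 10379 genes of at least 5 CPM, with the line of equal response. Red and blue points are genes whose response was called higher or lower in knockout cells, and grey points are the rest. CR2, TRD-AS1 and HES4 lie at the lower left in both lines, with RXRA and KRT1 above the line and HES1 below it.

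Of the 17 NOTCH targets tested the response was called lower in knockout cells for 1, HES1, and higher for 3, CR2, RHOU and CD3D. In NT cells HES1 had 80.6, 88.3 and 84.2 CPM with DMSO and 23.7, 22.6 and 22.5 CPM with the inhibitor. With DMSO 1 of the 3 knockout libraries lay within the NT range and the others below it, and with the inhibitor all 3 were below those of NT cells. The difference of the responses was -0.96 ± 0.12 (adjusted p = 0.0014), and it held without each of the 12 libraries (largest adjusted p = 0.0065). HES4 (-0.0080 ± 0.13, adjusted p = 0.98) and GIMAP5 (0.0032 ± 0.074, adjusted p = 0.99) gave no such call. CD3D fell less in knockout cells (difference 0.50 ± 0.060, adjusted p = 0.00068), with 231, 229 and 229 CPM with DMSO and 124, 128 and 121 CPM with the inhibitor in NT cells. MYC, at -1.96 in NT cells, differed by 0.33 ± 0.093 and was not called (adjusted p = 0.067). It was called with the replicate block (adjusted p = 0.018) and by DESeq2's Wald test (adjusted p = 0.02). It was also called from gene sums of transcript estimates (adjusted p = 0.049) and without knockout DMSO replicate 1 (adjusted p = 0.029). The other alternatives did not call it.

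Of the other named genes whose difference held without each library, all but IKZF2 had the smaller fall in knockout cells. RXRA, a nuclear receptor partner, had 4.82, 5.58 and 4.201 CPM with DMSO and 0.426, 0.429 and 0.364 CPM with the inhibitor in NT cells and 13.6, 12.1 and 13.1 CPM with DMSO and 5.19, 5.02 and 3.97 CPM with the inhibitor in knockout cells. The knockout inhibitor libraries overlapped the untreated NT libraries and lay far above the NT inhibitor libraries, and the difference of responses was 2.12 ± 0.19 (adjusted p = 6.2e-05). KRT1, a keratin, had 22.8, 24.5 and 24.9 CPM with DMSO and 4.93, 7.33 and 7.38 CPM with the inhibitor in NT cells and 41.5, 44.8 and 45.2 CPM with DMSO and 35.9, 33.6 and 40.5 CPM with the inhibitor in knockout cells (1.62 ± 0.16, adjusted p = 8.1e-05). The knockout difference of -0.26 was not called (adjusted p = 0.1), though it was when the 6 libraries were fitted alone, by limma-voom, with no filter on low counts (adjusted p = 0.049) and from gene sums of transcript estimates (-0.467, adjusted p = 4.6e-05). RB1, the retinoblastoma protein, had 572, 532 and 546 CPM with DMSO and 237, 249 and 228 CPM with the inhibitor in NT cells and 209.5, 196 and 205 CPM with DMSO and 168, 156 and 158 CPM with the inhibitor in knockout cells (0.87 ± 0.087, adjusted p = 8.1e-05). From gene sums of transcript estimates the RB1 difference was 0.21 and was not called (adjusted p = 0.1). Every knockout library, DMSO included, was below every NT library. CCR9 differed by 0.86 ± 0.10 (adjusted p = 0.00068), ACY3, an aminoacylase, by 1.75 ± 0.26 (adjusted p = 0.0076) and LGALS12, a galectin, by 1.403 ± 0.24 (adjusted p = 0.015). IKZF2 rose less in knockout cells (difference -0.54 ± 0.087, adjusted p = 0.011), from a higher DMSO level (28.3, 29.5 and 33.5 CPM in NT cells).

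**Figure D5:**
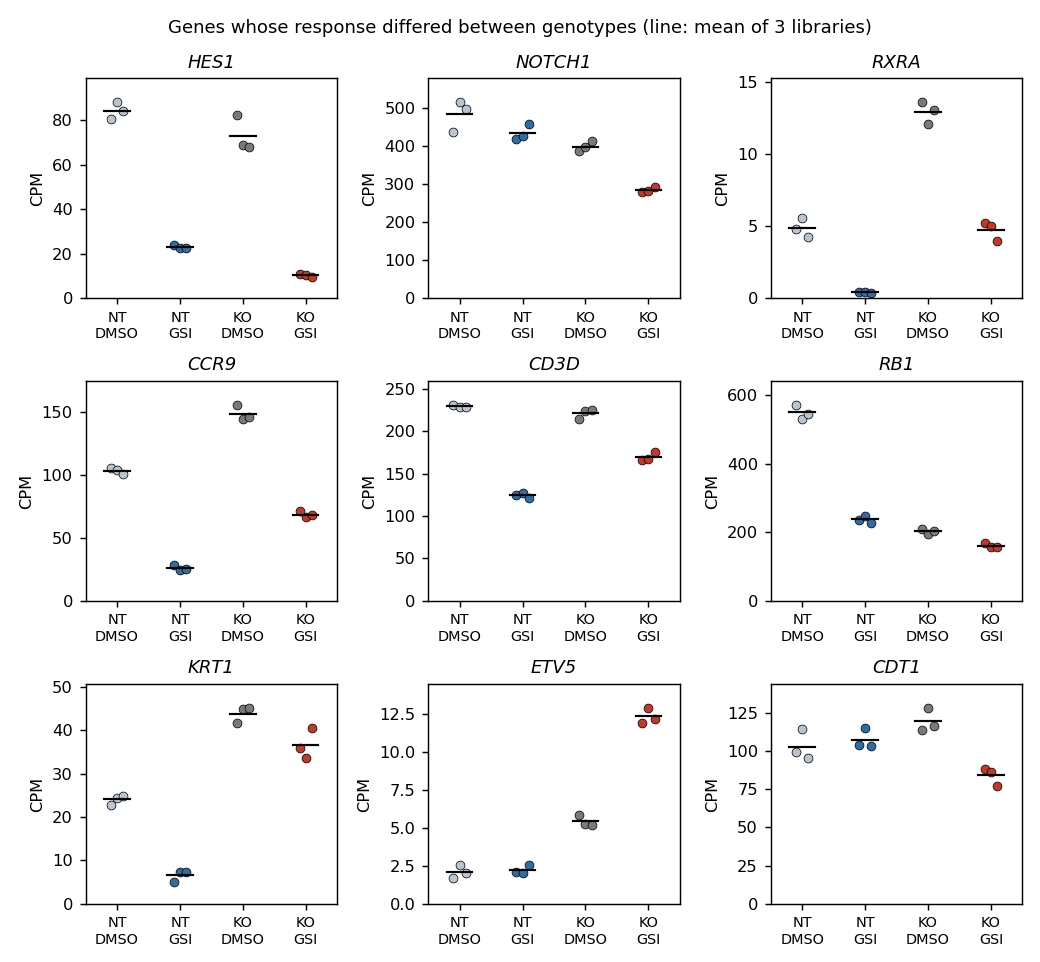
CPM of 9 genes whose response was called different between genotypes, with 1 point per library and a line at the mean of 3, in NT cells (blue tones) and knockout cells (grey and red). HES1 ends lower in knockout than in NT cells with the inhibitor, while RXRA, CCR9, CD3D and KRT1 end higher. The difference held without each of the 12 libraries for HES1, RXRA, CCR9, CD3D, RB1 and KRT1, though for RB1 it was lost from gene sums of transcript estimates. Of the 12 fits without 1 library, 11 kept the call for ETV5, 8 for CDT1 and 2 for NOTCH1.

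ETV5 and CDT1 were called in knockout cells and not in NT cells. ETV5 had 1.67, 2.56 and 2.04 CPM with DMSO and 2.05, 2.02 and 2.55 CPM with the inhibitor in NT cells, where the groups overlapped, and the difference of the responses was 1.10 ± 0.20 (adjusted p = 0.016, and 0.065 without knockout DMSO replicate 2). CDT1 differed by -0.57 ± 0.11 (adjusted p = 0.022, up to 0.083 without 1 library, lost without NT DMSO replicate 1, NT GSI replicate 3, knockout DMSO replicate 2 or knockout GSI replicate 3). Of the cytosolic ribosomal proteins 12 of 37 were lower in NT cells and 0 higher, with a median of -0.158 (6 lower without NT GSI replicate 3, 19 with the replicate block). The difference was called for 10 of 37, all higher in knockout cells, where 2.1% of all genes were. Without 1 library it was called for 0 to 19 of them, with 0 without NT GSI replicate 3, knockout DMSO replicate 2 or knockout GSI replicate 3, and with the block for 21. RPLP0 had 3491, 3299 and 3288 CPM with DMSO and 3120, 3367 and 3083 CPM with the inhibitor in NT cells, and its difference was 0.33 ± 0.065 (adjusted p = 0.022, up to 0.095 without 1 library, lost without NT DMSO replicate 1, NT GSI replicate 3, knockout DMSO replicates 2 and 3 or knockout GSI replicate 3). Proteasome genes were lower in 19 of 28 cases in NT cells, and ribosome biogenesis genes in 31 of 34, where 15% of all genes were. The difference was called for 7 of 28 and 8 of 34, all higher in knockout cells, and with the replicate block for 13 and 14. Without NT DMSO replicate 1, NT GSI replicate 3, knockout DMSO replicate 3 or knockout GSI replicate 3 it was called for 0 in either list.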

How the data were processed

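Polyadenylated RNA of 18 libraries (NT and PIK3R1-knockout RPMI-8402 cells, each with DMSO, CB-103 or the inhibitor for 24 h, 3 per group) was sequenced. The deposited gene table holds estimated counts, which the authors made with tools among bcl2fastq 2.20, FastQC 0.11.9, HISAT2 2.2.1 and Salmon 1.4.0 on hg38, per the submitters' processing notes, which give no order or role. The deposited transcript tables hold estimated counts and TPM, per the file headers, and their 206601 transcripts matched GENCODE 29, from which coordinates were taken. Strand use in counting is not given in the sources used here.

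Counts were rounded and tested with edgeR 4.0.16 (R 4.3.3) by its quasi-likelihood test, with TMM scaling and its default filter on low counts, in 1 model with a mean per group over all 18 libraries (12 residual degrees of freedom). The difference between responses was tested in the same model. Alternatives were DESeq2 1.42.0 (its size factors and its Wald test), limma 3.58.1 (voom), no filter, a fit on the compared groups alone, a replicate block, replicates 2 and 3 alone, a 2-fold minimum, gene sums of transcript estimates, and each library left out. The members, gene lists and tests were chosen with earlier results of these data known. Genes named were PIK3R1, 12 NOTCH-related genes, the 10 largest rises and falls at 5 CPM or more without overlap, up to 4 called members a list, the 6 largest differences a direction between the responses, and further list members where a count is described. The last (such as CDK1, TAL1, CXCR4, RHOH, ZAP70 and DNTT) were chosen after their values were seen. Same-numbered libraries deviated together over 10428 genes (r = 0.578, 0.327 and 0.297 in knockout cells, 0.513, 0.352 and 0.42 in NT cells). In knockout cells DMSO replicate 2 with GSI replicate 3 gave r = 0.332, and DMSO replicate 3 with GSI replicate 2 gave 0.241. In NT cells these values were 0.162 and -0.143. In knockout cells only replicate 1 was therefore set apart by number, and pairing of replicates 2 and 3 was not shown. In NT cells each same-numbered pair had a higher r than any pair of unlike numbers. The labels do not say what a number marks. Scripts were tested on simulated data. Some genes are not reported here.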

Additional observations from a re-analysis of the deposited data

Results flagged for a closer look

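For 35 named genes the response to the inhibitor differed between knockout and NT cells by the edgeR test of the difference, given here as the knockout log2 fold change minus that of NT cells, with the number of the 12 fits without 1 library that kept the call. In 9 of them each of the 12 fits kept it. The difference was positive for RB1 (0.87), CCR9 (0.86), CD3D (0.50), RXRA (2.12), ACY3 (1.75), KRT1 (1.62) and LGALS12 (1.4), and negative for HES1 (-0.96) and IKZF2 (-0.54). From gene sums of transcript estimates the RB1 difference was 0.21 and was not called (adjusted p = 0.1).

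In 9 genes 6 to 11 of the 12 fits kept the call. Among these the difference was positive for CR2 (0.55), RPLP0 (0.33), ETV5 (1.10), NDUFA1 (0.46), TOMM40 (0.39), CD63 (0.43) and ENSG00000275895 (1.15), and negative for CDT1 (-0.57) and LINC00174 (-1.07). The libraries whose loss ended the call differed between genes.

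In 17 genes 1 to 4 of the 12 fits kept the call. Among these the difference was positive for TRD-AS1 (1.14), RPS9 (0.37), RPL15 (0.29), EIF4EBP1 (0.28), DUSP5 (0.96), TXN (0.27), HNRNPA1 (0.32), PSMA4 (0.33), SNHG16 (0.21), RHOU (0.32) and CD2 (1.15), and negative for NOTCH1 (-0.33), PKD1P3 (-1.43), MIB2 (-1.27), ANKRD36B (-1.19), SMG1P1 (-1.17) and STK36 (-1.13).

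The ENSG00000275895 value is uncertain, since that gene, U2AF1L5, is a copy of U2AF1 and reads of the 2 may have been split. The largest adjusted p over the 12 fits was 0.049 for LGALS12 and 0.043 for IKZF2 among the genes that kept the call, and up to 0.16 (SNHG16) among the others. No explanation was tested for these differences.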

How the results depend on the processing

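Adding a 2-fold minimum left 322 of the 3341 calls in knockout cells, 510 of the 4277 in NT cells and 54 of the 484 differences between the responses. The knockout count ranged from 2398 to 2857 without 1 library, the NT count from 3111 to 4057, and the count of differences from 36 to 856. With the replicate block the knockout and NT counts were 4070 and 5106, and from gene sums of transcript estimates 4284 and 5348. The differences numbered 1257 by DESeq2's Wald test, 1291 with the replicate block, 42 with replicates 2 and 3 alone and 997 from gene sums of transcript estimates, and the cause was not tested. Of the values of named genes and of list members called in knockout cells under all alternatives, 5959 kept their direction and side of the threshold, 974 lost the call, 10 gained it and 0 reversed. Of the counts of list members called, 1062 stayed within 1.5 times and 228 did not. Of the calls made for these genes the replicate block ended none, and it added that of the MYC difference. Depth, 31772383 to 40861569 reads in the 6 libraries, leaves genes of few reads, such as PTCRA and IL7R, without a detectable difference.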
